A study of Avicennia officinalis with 4 samples.

Results

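The unigenes described here are 200 transcripts of *Avicennia officinalis* roots whose read share was lower in salt-treated than in control plants within each of the 2 replicate numbers. They were taken from a table of 168308 unigenes, which are transcript sequences assembled without a genome. A unigene could be taken when it had 10 or more reads in all 4 libraries and was not one of those numbered in the tables of transcription factors and salt tolerance-related genes or in the network drawings of the study. This left 41985 unigenes. For each of them the log2 ratio of salt-treated to control CPM (reads per 1000000 counted reads of the library) was taken within replicate 1 and within replicate 2, and the larger of the 2 ratios, the one closer to 0 in a unigene lower in both, was the score. The members are the 200 unigenes with the lowest scores, so they were chosen by the measured salt to control ratios themselves. The libraries of 1 replicate number are called a pair.

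The salt-treated roots came from seedlings of about 2 months, raised from propagules in a greenhouse without NaCl, that received 500 mM NaCl in diluted nutrient solution for 24 h. The control roots came from untreated seedlings of the same age. There were 2 libraries of mRNA per group, each from RNA of 3 plants. The 41985 unigenes held between 16553592 and 21295756 reads per library, which were 94.9% to 97.0% of its counted reads. The deposited table carries no gene names, sequences or annotation, so the members are given by their unigene number and the label root could not be checked against marker genes.

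Salt reaches the root as a lack of available water and as an excess of Na+ and Cl- ions. In roots of many plants it is followed by lower amounts of transcripts used in growth, cell wall building and water transport, beside higher amounts of transcripts used in protection. *A. officinalis* is a mangrove tree that filters salt at its roots and secretes it from glands on its leaves. Which of these functions the members serve is not given by the table. A lower value in RNA of whole roots can come from fewer cells of a type or from less RNA per cell, and these cannot be told apart.

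The values that chose the members are given as a description and were not tested. The ratio of pair 1 had a median of -1.03 over the 200 members and lay between -6.41 and -0.84. The ratio of pair 2 had a median of -1.32 and lay between -4.47 and -0.84. A log2 ratio of -1 stands for a value 2-fold lower in salt-treated roots. It was reached in pair 1 by 118 members, in pair 2 by 160 and in both pairs by 96. All 96 are members by construction, and they are 0.229% of the unigenes with enough reads. A ratio of -2 or lower in both pairs was found in 6 members, and of -3 or lower in 1 member. The lower of the 2 ratios was that of pair 2 for 140 members and that of pair 1 for 60. Over all 41985 unigenes the medians were 0.06 in pair 1 and 0.02 in pair 2.

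**Figure D1:**
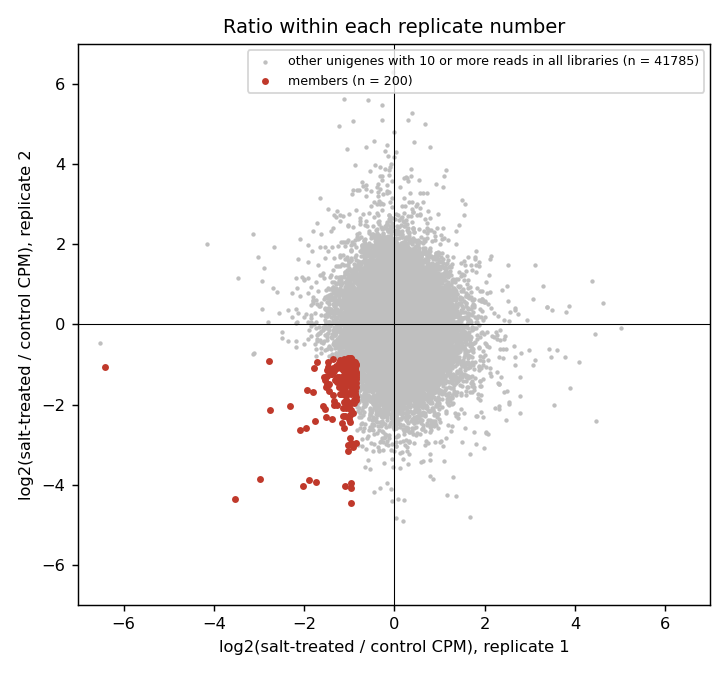
Log2 ratio of salt-treated to control CPM in replicate 1 (horizontal axis) and replicate 2 (vertical axis) for the 200 members (red) and the 41785 other unigenes with 10 or more reads in all 4 libraries (grey). The members fill the lower left corner beyond the limit of -0.84 on both axes, and the cloud of the other unigenes is wider along the axis of replicate 2.

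The 2 pairs did not rank the unigenes alike. Across the 41985 unigenes the Pearson correlation of the ratios of pair 1 and pair 2 was -0.07, and across the 12768 of them with 100 or more reads in every library it was -0.10. All unigenes share the same 4 libraries, and the correlations are a description of these libraries. The standard deviation of the ratio was 0.49 in pair 1 and 0.78 in pair 2. A ratio of -1 or lower was found for 737 unigenes in pair 1 and for 3868 in pair 2, against the 96 in both. A ratio of 1 or higher in both pairs was found for 102. Lower in both pairs by any amount were 8270 unigenes (19.7%), and higher in both were 11914.

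The member with the lowest score was Ug99018 (1507 bp), which had 22 and 66 reads in salt-treated replicates 1 and 2 and 264 and 1407 reads in control replicates 1 and 2. Both salt-treated libraries lay below both control libraries. The log2 ratio was -3.54 in pair 1 (95% exact binomial interval -4.24 to -2.91) and -4.36 in pair 2 (-4.74 to -4.00). Counting error alone enters these intervals, and the spread between libraries does not. Reads without molecular identifiers may be copies of 1 molecule, so the intervals may be too narrow even for counting error. In RPKM (CPM per kilobase of unigene), Ug99018 averaged 1.61 ± 1.33 in salt-treated and 30.1 ± 31.6 in control roots (SD, n = 2 libraries each), so that the spread between the control libraries was as large as their mean.

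Ug125793 (1653 bp) followed with 44 and 253 reads in the salt-treated and 356 and 3836 reads in the control replicates. Its ratios were -2.97 in pair 1 and -3.87 in pair 2. Salt-treated replicate 2, at 14.8 CPM, came close to control replicate 1, at 15.9 CPM, so the groups were separated by a narrow margin. Ug23691 (920 bp) had 12 and 29 reads in the salt-treated and 53 and 189 in the control replicates, with ratios of -2.10 and -2.65.

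Ug100849 (781 bp) and Ug100850 (999 bp) carry consecutive numbers and both stood among the 5 lowest scores. Ug100849 had 37 and 95 reads in the salt-treated and 258 and 435 reads in the control replicates, with ratios of -2.76 and -2.14. Ug100850 had 64 and 541 reads in the salt-treated and 328 and 2297 reads in the control replicates, with ratios of -2.31 and -2.03. In Ug100850 the groups overlapped, since salt-treated replicate 2 (31.6 CPM) was above control replicate 1 (14.6 CPM). Whether neighbouring numbers are parts or copies of 1 gene that share reads is not given by the table, and their values are uncertain to that extent.

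The other 5 of the 10 lowest scores rested on 10 to 46 reads in the salt-treated libraries. Ug79783 (4043 bp) had 10 and 11 reads in the salt-treated and 42 and 186 in the control replicates. Ug6609 (1635 bp) had 10 and 14 reads in the salt-treated and 40 and 88 in the control replicates. Neither unigene had overlapping groups, and the interval of pair 1 was wide, from -3.19 to -1.01 in Ug79783 and from -3.12 to -0.93 in Ug6609.

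Ug64017 (796 bp) had 11 and 31 reads in the salt-treated and 42 and 474 in the control replicates. Ug48062 (1336 bp) had 14 and 46 reads in the salt-treated and 48 and 733 in the control replicates. Both had much lower ratios in pair 2 (-3.88 and -3.94) than in pair 1 (-1.89 and -1.73). Ug9928 (577 bp) was the most even of the 10, with 18 and 10 reads in the salt-treated and 63 and 55 in the control replicates. Its RPKM was 1.22 ± 0.298 in salt-treated and 5.11 ± 0.346 in control roots (SD, n = 2 each).

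**Figure D2:**
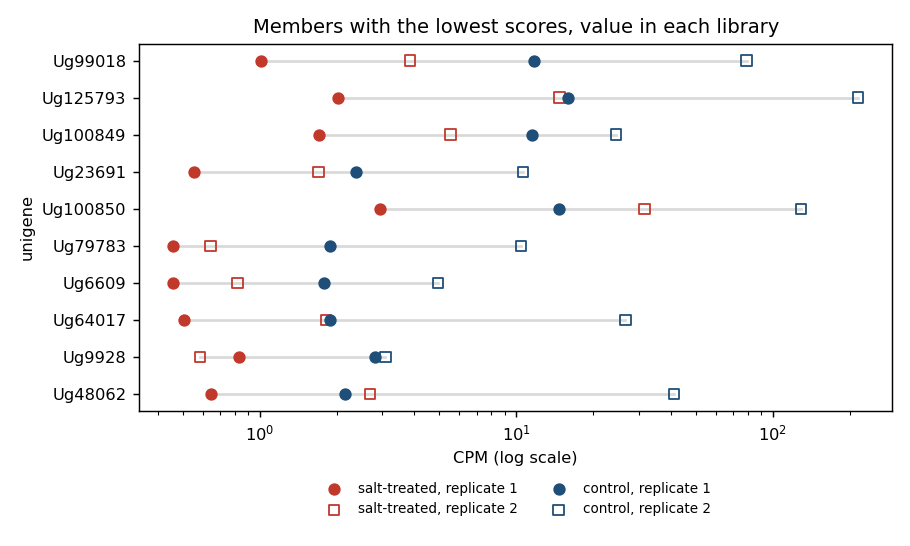
CPM on a log scale of the 10 members with the lowest scores in each library, with salt-treated libraries in red, control libraries in blue, filled circles for replicate 1 and open squares for replicate 2. In each row the red symbol lies left of the blue symbol of the same shape, as the rule requires. In Ug100850 and Ug48062 the salt-treated replicate 2 lies right of control replicate 1.

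The remaining 190 members had scores between -1.69 and -0.84. Just inside the limit stood Ug101009 (-0.85), Ug160680 (-0.84) and Ug50563 (-0.84), and just outside it Ug124115 (-0.84), Ug129152 (-0.84) and Ug19989 (-0.84). Ug50563 had 11 and 30 reads in the salt-treated and 23 and 56 in the control replicates, and Ug124115 had 33 and 16 in the salt-treated and 61 and 34 in the control replicates. The scores on both sides of the limit were equal or nearly so at 2 decimals, so that the limit separates no distinct group.

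Read numbers were low for most members. The median number of reads per member was 22 and 27 in salt-treated replicates 1 and 2 and 48 and 77 in control replicates 1 and 2, compared with 82, 60, 80 and 64 in the same libraries over all 41985 unigenes. In 120 members the lowest library had 20 reads or fewer, in 31 it had exactly 10, the least the rule admits, and only 12 members had 100 or more reads in every library. For all 200 members this lowest library was a salt-treated one, which the rule fixes. The counting interval of the ratio lay below 0 in both pairs for 160 members, which the rule favours, and for 2.49% of all unigenes with enough reads. It reached 0 in pair 1 for 26 members, in pair 2 for 18 and in both for 4.

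**Figure D3:**
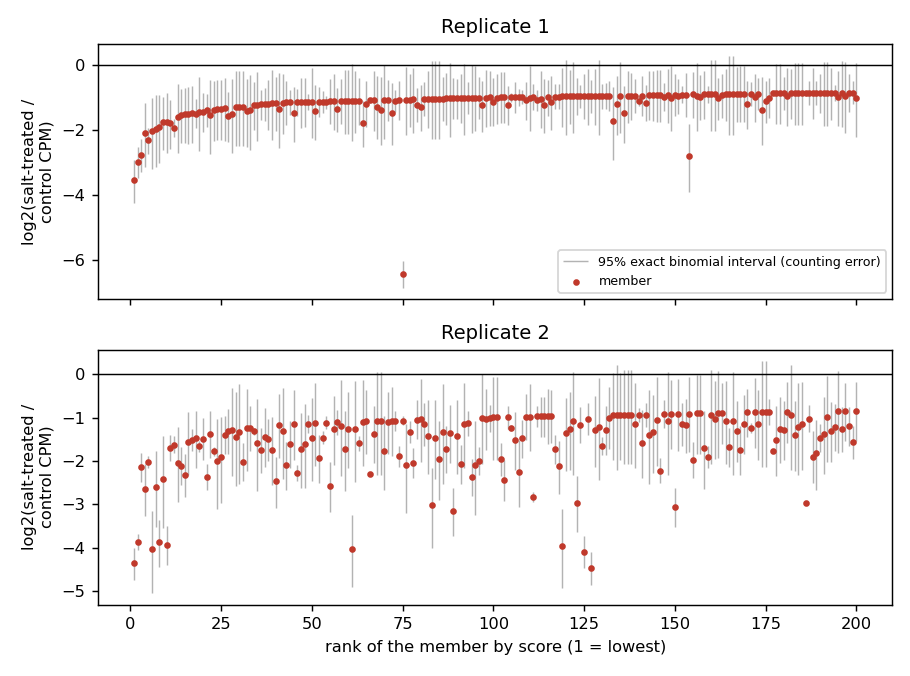
Log2 ratio of salt-treated to control CPM of the 200 members in replicate 1 (top) and replicate 2 (bottom), ordered by score, with 95% exact binomial intervals for counting error (grey lines). The interval reaches 0 for 26 members in replicate 1 and for 18 in replicate 2, and Ug71824 stands alone at -6.41 in replicate 1.

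The minimum of 10 reads kept out unigenes with fewer reads than this in a salt-treated library. Of the unigenes outside the study's tables and drawings, 5804 had 10 or more reads in both control libraries and fewer in at least 1 salt-treated library. With 0.5 reads added to each count, 674 of these had a score at or under the limit of the list, and 73 of the 674 had 0 reads in at least 1 salt-treated library, where a count of 0 allows up to 3 reads. The members are therefore unigenes whose measured value was lower in the salt-treated library of each pair but which kept 10 or more reads there.

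The members spanned a wide range of abundance. The mean RPKM of the control libraries lay between 0.362 and 1304, with a median of 4.77, and was 10 or more in 53 members and 100 or more in 8. The median over all unigenes with enough reads was 3.60. In salt-treated roots the mean RPKM of the members had a median of 1.66, against 3.64 over all unigenes. Together the members took 0.114% and 0.314% of the counted reads of salt-treated replicates 1 and 2, and 0.245% and 1.25% of those of control replicates 1 and 2. Few members carried most of these reads. The 3 members highest in control replicate 2 held 66.9% and 63.0% of the member reads in the salt-treated and 58.2% and 69% in the control replicates.

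These 3 were Ug88091 (2121 bp), Ug6502 (2168 bp) and Ug35802 (2184 bp). Ug88091 had an RPKM of 245 and 633 in salt-treated replicates 1 and 2, against 447 and 2161 in control replicates 1 and 2. Ug6502 had 47.8 and 141 in the salt-treated and 86.7 and 1098 in the control replicates. Ug35802 had 62.5 and 152 in the salt-treated and 133 and 746 in the control replicates. In all 3 the groups overlapped, because salt-treated replicate 2 was above control replicate 1, and control replicate 2 was several-fold above every other library. Their ratios were -0.87, -0.86 and -1.09 in pair 1 and -1.77, -2.96 and -2.30 in pair 2. Read numbers were between 2255 and 81604 per library, so counting error was small beside the difference between the replicates.

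The other 7 of the 10 members with the highest mean control RPKM shared this order of libraries, with 1 exception. Ug61132 (1323 bp) had an RPKM of 23.1 and 90.2 in the salt-treated and 45.6 and 213 in the control replicates, and Ug126167 (510 bp) had 9.55 and 54.6 in the salt-treated and 20.8 and 150 in the control replicates. Ug127447 (436 bp) had 8.43 and 97.1 in the salt-treated and 16.6 and 690 in the control replicates, and Ug9355 (732 bp) had 5.77 and 81.1 in the salt-treated and 10.6 and 191 in the control replicates. The exception was Ug71824 (1316 bp), with 1.75 and 49.0 in the salt-treated and 149 and 103 in the control replicates. It had the lowest ratio of all 200 members in pair 1 (-6.41, with 50 reads in salt-treated and 4388 in control replicate 1), while its score was set by the ratio of -1.06 in pair 2.

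**Figure D4:**
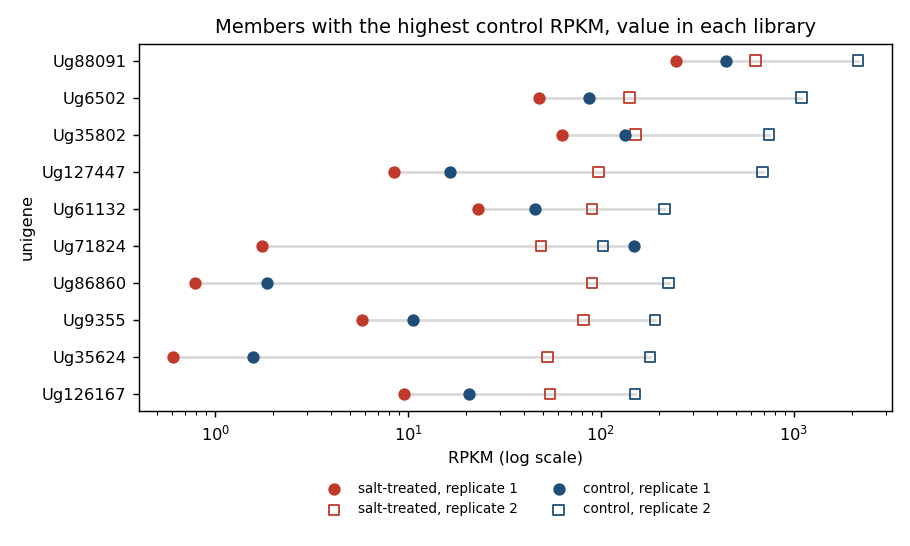
RPKM on a log scale of the 10 members with the highest mean control RPKM in each library, with salt-treated libraries in red, control libraries in blue, filled circles for replicate 1 and open squares for replicate 2. In 9 of the rows the replicate 2 library of each group lies right of both replicate 1 libraries, while Ug71824 is lowest in salt-treated replicate 1 and highest in control replicate 1.

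The difference between the replicate numbers was not used by the rule, although it rests on the same reads. The mean over both groups of the log2 ratio of replicate 2 to replicate 1 had a median of 0.87 over the members, with a lowest value of -2.35 and a highest of 6.88, and a median of -0.05 over all unigenes with enough reads. Replicate 2 was above replicate 1 in both groups for 138 members and below it in both for 40. Over all unigenes these shares were 34.1% and 38.1%. A difference of 2 or more on the log2 scale towards replicate 2 in both groups was found in 33 members and in 1.54% of all unigenes, and towards replicate 1 in 0 members and in 1.02% of all unigenes.

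With condition and replicate number as terms, the quasi-likelihood test of edgeR over 62900 unigenes (Benjamini-Hochberg adjustment) called 56 of the 200 members as higher in replicate 2 at an adjusted p of 0.05 (28.0%, against 5.8% of all tested unigenes). It called 3 members as lower in replicate 2, against 4.82% of all. DESeq2 called 59 as higher, against 5.36% of all. The 62900 tested unigenes outnumber the 41985 that the rule could take, so part of them could not be members. The calls were not counted over the 41985 alone, so nothing is read from the contrast of the shares. In the edgeR and the DESeq2 fit the spread of a unigene is estimated from how far the ratios of its 2 pairs differ. The rule used these ratios, so the calls of members are a description and not an independent test. Without the condition term and with all 4 libraries, 11 of the 200 members and 3062 of the 62900 tested unigenes were called as higher. In that fit the share of the members was near that of all tested unigenes. The tested set is the same, so nothing is read from this nearness either. Leaving out a library also took the condition term out of the fit, so that the part of the library and of the term cannot be told apart. Such fits leave a single library under a replicate number, so no share of calls is read from them. Of the 85 members with 20 or more reads in all 4 libraries, a set chosen after seeing the data, 36 were called as higher in replicate 2 (42.4%). The share over all unigenes with as many reads was not taken, so nothing is read from this rise. The replicate 2 library of each group had fewer counted reads than its replicate 1 library, and the part of depth in the difference was not tested.

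**Figure D5:**
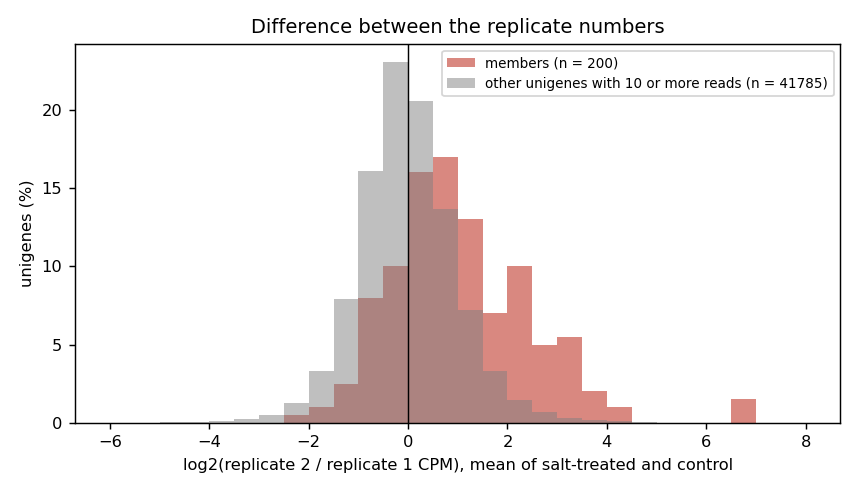
Share of unigenes (vertical axis, %) by log2 ratio of replicate 2 to replicate 1 CPM, averaged over salt-treated and control libraries, for the 200 members (red) and the 41785 other unigenes with 10 or more reads in all libraries (grey). The members are shifted towards replicate 2, with a median of 0.87, and 3 of them lie beyond 6.

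The 3 members farthest towards replicate 2 were nearly confined to it. Ug86860 (1396 bp) had 2156 reads in salt-treated and 5587 in control replicate 2, and 24 and 58 in replicate 1 of these groups. Ug35624 (1137 bp) had 1027 reads in salt-treated and 3646 in control replicate 2, and 15 and 40 in replicate 1. Ug58795 (3345 bp) had 712 reads in salt-treated and 2336 in control replicate 2, and 10 and 28 in replicate 1. The log2 difference between the replicates was 6.94, 6.72 and 6.68 in edgeR (adjusted p = 0.0023 for each, quasi-likelihood test with Benjamini-Hochberg adjustment). For each, the salt-treated library lay below the control library of its own number, as the rule requires of every member. Their ratios were -1.23, -1.37 and -1.44 in pair 1 and -1.32, -1.77 and -1.66 in pair 2.

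Ug100279 (737 bp) and Ug127447 followed, with log2 differences of 4.57 and 4.54 (adjusted p = 0.00299 and 0.0055 in the same edgeR test). The 5 members farthest towards replicate 1 differed less. Ug126398 (1176 bp) had 18 reads in salt-treated and 89 in control replicate 2, and 181 and 368 in replicate 1, a log2 difference of -2.22 (adjusted p = 0.0268, same edgeR test). Ug36410 and Ug86742 had log2 differences of -1.58 and -1.40 (adjusted p = 0.037 and 0.0444, same edgeR test). Ug80450 and Ug130109 had -1.42 and -1.28 (adjusted p = 0.0789 and 0.107, same edgeR test) and were not called. The members of this and the preceding paragraph were named for their replicate differences, so their p-values are a description.

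With both ratios at or under the limit, the groups of a member can overlap only where its replicates differ. The counts of overlap are therefore a description. Both salt-treated libraries lay below both control libraries in 126 members and in 6.73% of all unigenes with enough reads, a share that the rule raises and from which nothing is read. In the other 74 members the groups overlapped, 67 times because salt-treated replicate 2 was above or at control replicate 1 and 7 times because salt-treated replicate 1 was above or at control replicate 2. In 22 members 90% or more of the control CPM was in 1 control library, which was replicate 2 each time. The share among all unigenes was 1.5%.

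Of the same 200 members, 87 differed by less than 1 on the log2 scale between the replicates in both groups (53.7% of all unigenes did). With ratios at or under the limit in both pairs, so small a replicate difference leaves little room for the groups to overlap, so their overlap is not counted here. Their ratios had a median of -1.02 in pair 1 and -1.15 in pair 2. The longest member, Ug1047 (5742 bp), belongs to them, with an RPKM of 0.304 and 0.468 in the salt-treated and 0.644 and 0.919 in the control replicates. Ug160680 (1021 bp) had 4.86 and 4.40 in the salt-treated and 8.73 and 13.0 in the control replicates. That the salt-treated value lies below the control value in both pairs holds for every member by construction. The shortest member, Ug102267 (209 bp), had 30 and 10 reads in the salt-treated and 63 and 26 in the control replicates, and its groups were apart only narrowly in CPM (1.38 and 0.584 in the salt-treated, 2.81 and 1.46 in the control replicates).

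The salt-treated against control contrast, from which the members were chosen, was fitted over all 4 libraries. With condition as the only term, the quasi-likelihood test of edgeR (Benjamini-Hochberg adjustment) found 0 of the 200 members and 0% of the 62900 tested unigenes to be lower at an adjusted p of 0.05. At an unadjusted p under 0.05, 17 members and 0.11% of all tested unigenes were lower. DESeq2 with the same single term called 0 members and 1 of the 62900 tested unigenes as lower at an adjusted p of 0.05. Since the rule used this contrast, nothing is read from these shares. For a single unigene, the smallest two-sided p of an exact permutation of 2 and 2 libraries is 0.333.

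Length and numbering were not used by the rule. The members were between 209 and 5742 bp long, with a median of 1041 bp, and 48.5% were shorter than 1000 bp. Over all unigenes with enough reads the median was 1263 bp and the share 39.1%. At a given number of reads a shorter unigene has a higher RPKM, and the members also had fewer reads than the rest in the salt-treated libraries. The part of read number in the difference of length was not tested.

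Members were found over nearly the whole range of unigene numbers, from Ug1047 to Ug164910. From number 130000 up there were 8 members (4.0%) and 547 of the 41985 unigenes with enough reads (1.30%), although 38309 unigenes of the table carry such numbers. The 8, chosen after their values were seen, had few reads apart from Ug138135 (567 bp), with 140 and 284 reads in the salt-treated and 550 and 911 in the control replicates, and Ug160680.

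Besides Ug100849 and Ug100850, 3 sets of consecutive numbers were found among the members. Ug72557 (1437 bp) had 20 and 171 reads in the salt-treated and 43 and 445 in the control replicates, and Ug72558 (886 bp) had 19 and 92 in the salt-treated and 38 and 196 in the control replicates. Both were far higher in replicate 2. Ug47932 (865 bp) had 23 and 31 reads in the salt-treated and 43 and 120 in the control replicates, and Ug47933 (872 bp) had 19 and 30 in the salt-treated and 44 and 172 in the control replicates, a nearly equal profile. Ug61776 (905 bp) and Ug61777 (471 bp) differed more, with 41 and 24 against 82 and 194 reads and with 24 and 44 against 57 and 84 reads in the salt-treated against the control replicates.

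Neighbours in number had ratios near those of all unigenes. Of the unigenes numbered 1 below or 1 above a member and not members themselves, a set added after seeing the data, 184 had enough reads. Their ratios had a median of 0.06 in pair 1 and -0.12 in pair 2, and 41 were lower in both pairs (22.3%, against 19.7% of all). Across 21468 unigenes with enough reads that are followed by the next number, the Pearson correlation of neighbouring ratios was 0.05 in pair 1 and 0.10 in pair 2, given as a description. No member stood next to a unigene numbered in the study's tables or drawings.

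The unigenes that the study does name were left out of the list by its rule. Of the 76 unigenes listed there as down-regulated, 10 had 10 or more reads in all 4 libraries and 5 of these had a score under the limit. Cytochrome P450 78A3 (Ug9466), of an enzyme family known for effects on organ growth in Arabidopsis, had 14 and 69 reads in the salt-treated and 58 and 363 in the control replicates. The chlorophyll a-b binding protein (Ug86979), a part of the light-harvesting antenna, had 18 and 17 reads in the salt-treated and 98 and 62 in the control replicates, with the groups apart and ratios of -2.40 and -1.81. The bZIP unigene Ug59417 and the ERF unigene Ug20505, both of families of DNA-binding transcription factors, had ratios of -1.31 and -2.20 and of -0.90 and -2.22. An uncharacterized protein (Ug45471) had 119 and 164 reads in the salt-treated and 805 and 404 in the control replicates. P450 78A3, the bZIP and the ERF unigene were higher in replicate 2 in both groups, as many members were. The other 2 were higher in replicate 2 in the salt-treated group and lower in the control group. Of the 69 unigenes listed as up-regulated 6 had enough reads, and of the 167 read from the network drawings 15 had, and none of these came under the limit.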

How the data were processed

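The authors assembled clean reads of 4 libraries de novo into unigenes with Trinity (release-20121005) and obtained RPKM with SOAP (2.21). They deposited raw read counts and RPKM per unigene and library. For read pairs and ambiguous hits, the paper and labels state no counting rule. Deposited RPKM equalled CPM per kilobase (largest error 5e-05). Groups and replicate numbers came from the labels. Nothing in the labels ties libraries of the same number to each other beyond that number, and p-values measure the spread between these libraries.

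CPM used the counted reads of each library. Numbers in the network drawings were read from the picture for exclusion only. The count test was that of edgeR 4.0.16 under R 4.3.3 (TMM, glmQLFit, glmQLFTest, Benjamini-Hochberg; filterByExpr at its default minima, 10 reads and a total of 15), with DESeq2 1.42.0 and limma 3.58.1 as alternatives. The scripts were tested on simulated data. Other steps used Python 3.11.15, pandas 2.3.3 and scipy 1.17.1. A count of 0 allows 3 reads, between 0.134 and 0.175 CPM. The members and lists were chosen with earlier results of these data known. Named members were the 10 lowest scores, the 10 highest control RPKM, the 5 largest and the 5 smallest (most negative) replicate differences, those beside the limit, the longest and shortest, and those with consecutive numbers. The 3 with the smallest adjusted p under DESeq2 with a replicate term were named as well.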

Additional observations from a re-analysis of the deposited data

How the results depend on the processing

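Membership depended on the rule more than on scaling. TMM, upper quartile and DESeq2 factors kept 189, 194 and 187 of the 200 members and 0.1 CPM added kept 187. A minimum of 5 reads kept 60, of 20 reads 85, no minimum with 0.5 reads added 2, 1 CPM added 123, the mean of the ratios 73, and a ranking by edgeR log2 fold change 40. Scores from a single pair kept between 19 (without replicate 1) and 33 (without replicate 2). With 1 CPM added the median ratios were -0.68 and -0.97. Without replicate block, salt calls over all unigenes were 0, and DESeq2 made 1 higher and 1 lower. Leaving out a library gave 0 to 2 lower calls, the 2 without control replicate 2, and 0 members called.

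The deviations of same-numbered libraries correlated at 0.63 over unigenes. With the replicate block, edgeR called 0 unigenes and a ranking by its fold change kept 70 members, while DESeq2 found 14 higher and 154 lower unigenes (0.245% lower). Of the lower ones 14 were members, Ug99018, Ug125793 and Ug100850 with the smallest adjusted p. The rule chose the members on this contrast, so nothing is read from these calls.

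Between the replicates, 3650 unigenes were called as higher and 3032 as lower. Limma on log2(RPKM + 0.1) called 2104 as higher and 2179 as lower, and 32 members as higher and 1 as lower. No filter gave 5629 and 6795. Without the condition term 11 members and 3062 of all tested unigenes were higher, and 0 members and 2240 of all were lower. Leaving out a library gave 0 to 2806 higher and 0 to 4647 lower unigenes, and 0 to 57 higher and 0 to 2 lower members. The 85 members with 20 or more reads, added after seeing the data, held 36 of the higher calls. The share over all unigenes with as many reads was not taken.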
